A study of Mus musculus with 2 samples.

Results

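The miRNA genes Mir137, Mir138-1, Mir138-2, Mir129-1 and Mir129-2 encode the 3 miRNAs miR-137, miR-138 and miR-129. They were picked by gene name, through the match of Ensembl identifiers to the GENCODE M21 annotation, and make up 5 of the 2202 miRNA genes measured. The left cerebral cortex was taken from 2 female mice of the strain B6CASTF1/J at an age of 2 months. These are F1 animals of a cross between a C57BL line and CAST, a line derived from wild mice. Neither mouse carried a treatment or an engineered allele, per the labels. The assay, microRNA-seq, makes a library of RNA under 30 nucleotides so that mature miRNAs can be counted. Each mouse gave 1 library, and the libraries are called animal 1 and animal 2 after the biological replicate numbers in the labels. The labels number the mice separately but give both the same donor identifier. There was a single group and so no contrast between conditions. What can be asked is how much of each miRNA the cortex held, how the paralogous copies compare, and how far the animals differed.

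A miRNA is cut from a hairpin transcript and guides repression of messenger RNAs that pair with its seed, bases 2 to 8. Either arm of the hairpin, the 5p or the 3p arm, can yield a mature miRNA. Each of these miRNAs is known for work at synapses in rodent neurons. miR-137 acts in neuronal maturation and in presynaptic vesicle release, and its human locus is associated with schizophrenia. miR-138 is found in dendrites, where it limits the size of dendritic spines by repressing the depalmitoylating enzyme Lypla1. miR-129 represses dendritic translation of the potassium channel Kcna1, and in cultured neurons its 5p arm takes part in the weakening of synapses that follows prolonged high activity.

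The mature sequences are shown because they decide which counts can be told apart between copies. They are from RefSeq on GRCm38.p6, the assembly that mm10 denotes, and all 5 genes matched by symbol. Capitals mark the seed.
miR-137-3p: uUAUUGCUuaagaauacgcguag
miR-137-5p: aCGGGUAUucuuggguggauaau
miR-138-5p: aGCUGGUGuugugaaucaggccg
miR-138-1-3p: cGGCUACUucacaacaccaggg
miR-138-2-3p: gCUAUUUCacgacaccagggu
miR-129-5p: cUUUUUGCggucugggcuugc
miR-129-2-3p: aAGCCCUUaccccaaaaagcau
None of these 7 arms shares its seed with another. RefSeq lists no 3p arm for Mir129-1, so these statements do not cover one. Among the 1738 mature entries of the RefSeq table, no gene outside the 5 had a mature miRNA with any of these seeds. The sequences of miR-138-5p and miR-129-5p each lie in 2 hairpins, because both copies of either gene encode the same 5p arm. The other arms, and both arms of miR-137, lie in a single hairpin among the 2202 genes.

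The 4 hairpins with a paralogous copy are shown to mark the stretch that the copies share, which is in capitals. They are the annotated transcripts of GENCODE M21, and the RefSeq hairpins were identical to them.
Mir138-1: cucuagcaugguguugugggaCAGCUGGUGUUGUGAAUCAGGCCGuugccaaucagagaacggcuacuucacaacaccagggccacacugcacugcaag
Mir138-2: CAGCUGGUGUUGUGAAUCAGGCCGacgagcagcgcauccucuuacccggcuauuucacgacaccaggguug
Mir129-1: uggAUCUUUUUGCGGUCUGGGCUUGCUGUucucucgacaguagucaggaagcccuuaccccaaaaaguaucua
Mir129-2: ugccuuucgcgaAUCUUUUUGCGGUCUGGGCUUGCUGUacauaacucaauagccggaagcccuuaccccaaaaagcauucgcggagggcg
The shared stretch is 24 bases long in the miR-138 hairpins and 26 bases in the miR-129 hairpins. A read that starts at the first base of miR-138-5p meets a base that differs between the hairpins only at its base 24, and one that starts at miR-129-5p only at its base 25. Those arms are 23 and 21 bases long. A read of the exact mature 5p arm can therefore not be assigned to either copy by its sequence.

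Over the 3p arms the hairpins do differ between copies. Positions are counted from 1 at the 5′ end of the named arm. Placed on the Mir138-2 hairpin without gaps, miR-138-1-3p differs by C7U and A13G, the named arm's base standing first. Placed on the Mir129-1 hairpin, miR-129-2-3p differs by C20U alone, so its seed bases also occur in that hairpin. Of the 22-base windows along each hairpin, 3 of 78 in Mir138-1 and 3 of 50 in Mir138-2 also occur in the other copy. The number is 5 of 52 in Mir129-1 and 5 of 69 in Mir129-2, and 0 of 52 in Mir137. The tables give a single count per hairpin, so which arm the counted reads came from was not measured.

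**Figure D1:**
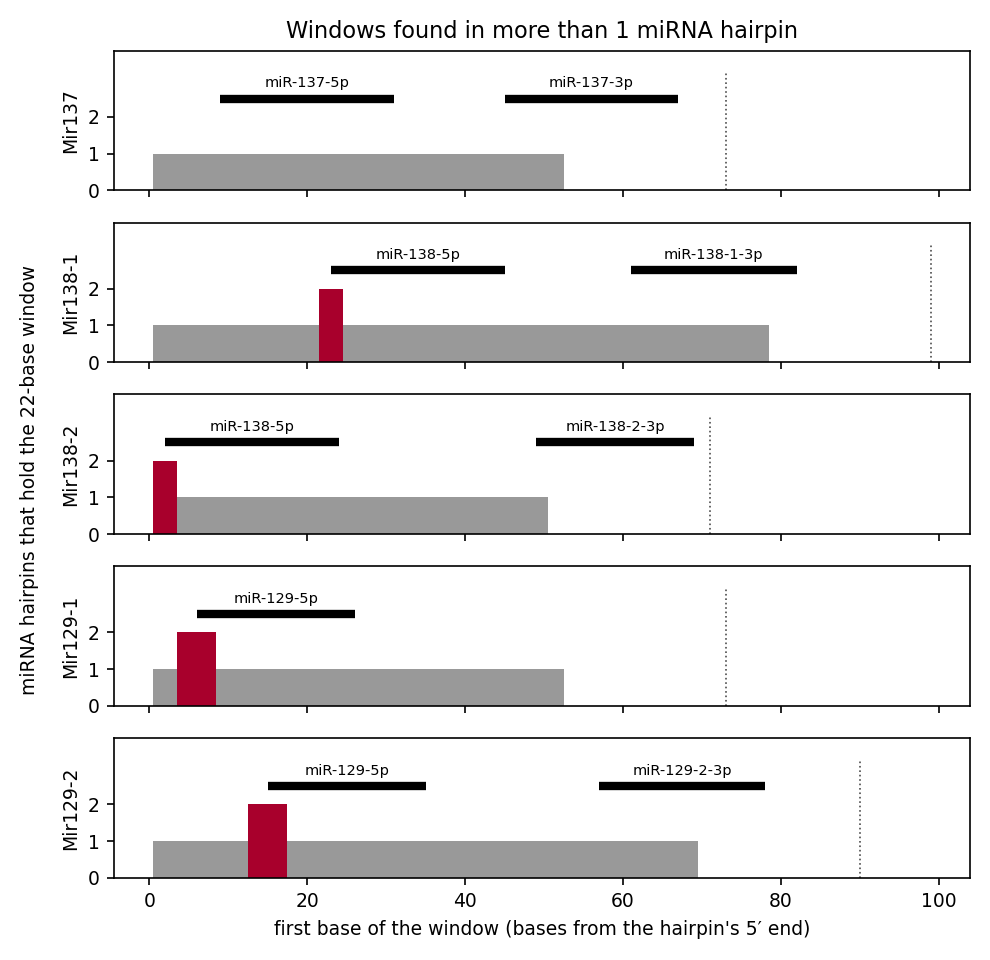
Each panel is a hairpin, with the first base of a 22-base window on the horizontal axis and the number of annotated miRNA hairpins that hold the window as bar height. Red bars mark windows held by 2 hairpins, black bars the RefSeq mature arms, and the dotted line the hairpin's end. Shared windows lie at the start of the 5p arm of the miR-138 and miR-129 hairpins, and Mir137 has none.

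The libraries held 4415759 counts at miRNA genes in animal 1 and 2279562 in animal 2. Levels are given as CPM, counts per 1000000 counts at miRNA genes. A separate entry held reads that mapped to several places, amounting to 48.9% of what mapped for animal 1 and 48.2% for animal 2. These percentages count that entry apart from the gene counts, but the sources used here do not state how the gene counts handled such reads. The part of them that came from miR-138-5p or miR-129-5p is unknown, and the levels of those 4 genes carry that limit. All intervals are for counting error alone. PCR duplicates could not be removed without molecular identifiers, and any that remain would make these intervals too narrow. The cortex label was set against marker miRNAs. Of 10 neuron genes, 6 reached 2 CPM in both animals and none was at 0 in both, although the 3 copies of Mir124a had at most 11 counts. Of 10 striated muscle genes, 2 reached 2 CPM and 6 were at 0 in both. Both lists hold numbered copies, such as those of Mir124a and Mir9 for neurons and of Mir1a and Mir133a for muscle. Reads of an arm shared by copies may be missing from such counts, so these lists cannot decide the label. The tissue is a mixture of cell types, so fewer cells of a type and less RNA per cell cannot be told apart.

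All 5 genes passed 2 CPM in both animals and ranked between 38 and 129 by level in either. Their joint share of the library was 1.43% for animal 1 (1.42 to 1.44%, exact Clopper-Pearson 95% interval) and 1.40% for animal 2 (1.38 to 1.41%), a mean of 1.41% ± 0.0201 (SD, n = 2). The median of their mean levels was 3105 CPM, against 87.0 CPM over the 415 genes at 2 CPM or more in both animals and 0 CPM over all 2202 genes. The ranks by mean level were 40 for Mir138-1, 48 for Mir137, 51 for Mir138-2, 64 for Mir129-2 and 113 for Mir129-1.

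miR-137 comes from a single gene. Mir137 (ENSMUSG00000065569.2) lies on chromosome 3 at 118433857 to 118433929, plus strand, on mm10. It overlaps an exon of the noncoding transcript Gm26871. It had 19156 counts in animal 1 and 6957 in animal 2, or 4338 CPM (exact Poisson 95% interval 4277 to 4400) and 3052 CPM (2981 to 3124). The mean was 3695 ± 909 CPM (SD, n = 2). Gm24155, an annotated miRNA gene on the same strand that starts 792 bases past the end of Mir137, had 0 counts in both animals. With a floor of 3 counts per library, a count of 0 allows up to 0.679 CPM for animal 1 and up to 1.32 CPM for animal 2. Against that floor Mir137 was at least 6385-fold higher than its neighbour in animal 1. In animal 2 the bound was at least 2319-fold higher.

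By summed gene counts, miR-138 stood first of the 3 miRNAs in both animals. Reads of an arm shared by copies may be missing from such sums, so this order does not rank the mature miRNAs. Mir138-1 (ENSMUSG00000065414.1) occupies 122682876 to 122682974 on the plus strand of chromosome 9, in an exon of Gm47135, which the annotation calls a transcribed unprocessed pseudogene. It had 19117 and 11455 counts, or 4329 CPM (4268 to 4391) in animal 1 and 5025 CPM (4933 to 5118) in animal 2, a mean of 4677 ± 492 CPM (SD, n = 2). Mir138-2 (ENSMUSG00000065512.3) lies on chromosome 8 at 94324311 to 94324381, plus strand, in an exon of the long noncoding RNA gene C78859. It had 14792 and 6520 counts, or 3350 CPM (3296 to 3404) in animal 1 and 2860 CPM (2791 to 2930) in animal 2, a mean of 3105 ± 346 CPM. Both copies were therefore well covered, with 6520 counts or more in either animal. The sum of the copies was 7679 CPM in animal 1 and 7885 CPM in animal 2, or 7782 ± 146 CPM. The sum differed less between the animals than either copy did.

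miR-129 had lower summed gene counts than miR-138 in both animals, under the same limit, and most of them lay at its second gene. Mir129-2 (ENSMUSG00000065511.1) lies on chromosome 2 at 94241364 to 94241453, minus strand, in an intron of the long noncoding RNA gene Mir670hg. It had 7863 and 5107 counts, or 1781 CPM (1742 to 1820) in animal 1 and 2240 CPM (2179 to 2303) in animal 2, a mean of 2011 ± 325 CPM (SD, n = 2). Mir670, a miRNA gene on the same strand in that locus, had 25 and 16 counts, or 6.34 ± 0.960 CPM. Mir129-1 (ENSMUSG00000065469.1) occupies 29022619 to 29022691 on the plus strand of chromosome 6, in an exon of the long noncoding RNA gene Gm3294. It had 2115 and 1857 counts, or 479 CPM (459 to 500) in animal 1 and 815 CPM (778 to 853) in animal 2, a mean of 647 ± 237 CPM. It was the lowest of the 5 genes in both animals. The sum of the copies was 2260 CPM in animal 1 and 3055 CPM in animal 2, or 2657 ± 562 CPM.

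**Figure D2:**
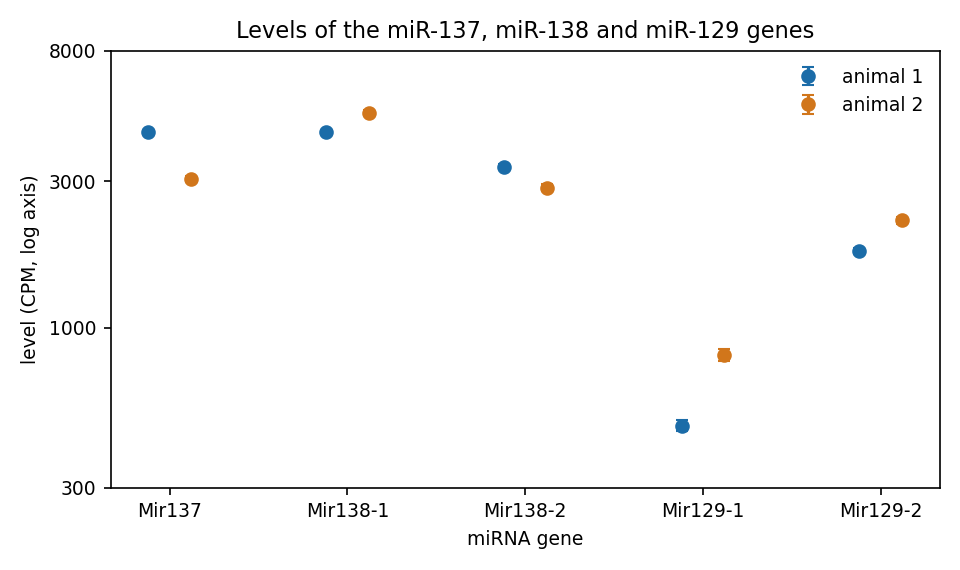
Level of each gene in CPM on a log axis, with animal 1 as blue points and animal 2 as orange points; bars are exact Poisson 95% intervals of the count. Mir137 and Mir138-1 lie level in animal 1, at 4338 and 4329 CPM, and Mir129-1 is lowest in both animals at 479 and 815 CPM.

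Within each animal the order by CPM was the same for the lower 3 genes, with Mir138-2 above Mir129-2 and Mir129-2 above Mir129-1, and their counting intervals did not overlap. The first 2 places were not settled, as Mir137 and Mir138-1 had overlapping intervals in animal 1 while Mir138-1 was higher in animal 2. Between the animals Mir137 spread from 3052 to 4338 CPM, a range that overlaps those of Mir138-1 and Mir138-2. The hairpins differ in length from 71 to 99 bases, while their mature arms are 21 to 23 bases long. A level per hairpin base is therefore not a level per base of mature miRNA. Per base of hairpin, a scale chosen after the values were seen, Mir137 came first by its mean of 50.6 ± 12.5 CPM per base (SD, n = 2). Mir138-1 then had 47.2 ± 4.97, Mir138-2 43.7 ± 4.88, Mir129-2 22.3 ± 3.61 and Mir129-1 8.86 ± 3.25 CPM per base. Mir137 led in animal 1 at 59.4 CPM per base and Mir138-1 in animal 2 at 50.8, so the first 3 places differed between the animals on this scale.

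The copies of miR-138 shared its counts more evenly than those of miR-129. Mir138-1 had 56.4% of the pair's counts in animal 1 (55.8 to 56.9%, exact Clopper-Pearson 95% interval) and 63.7% in animal 2 (63.0 to 64.4%), a mean of 60.1% ± 5.20 (SD, n = 2). Per base of hairpin the share was 48.1% in animal 1 and 55.8% in animal 2, so the leading copy differed between the animals on that scale. Mir129-2 held 78.8% of its pair's counts in animal 1 (78.0 to 79.6%) and 73.3% in animal 2 (72.3 to 74.4%), a mean of 76.1% ± 3.87. Per base of hairpin it held 75.1% and 69.0%, and so led in both animals on either scale. These shares do not depend on the library total. They cover counted reads only, and cannot show how reads of the shared 5p arm would divide.

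To set these values beside those of other miRNAs, all families of numbered copies with 10 or more counts were listed. There were 25 such families, 23 of them with 2 copies. The leading copy held a median of 76.1% of the family's counts, ranging from 47.6% in Mir124a, which has 3 copies with 21 and 6 counts in the animals, to 100% in Mir194 and Mir3074. Mir138 was the 6th most even family and Mir129 the 13th, which is the middle of the list. By summed level Mir138 was 2nd, after Mir128 at 15374 CPM, and Mir129 was 3rd, against a family median of 314 CPM. Reads of an arm that copies share may be missing from these sums, so the order does not rank the mature miRNAs. An identical mature arm in every copy was no special feature of these pairs, as 24 of the 25 families had at least 1; Mir124a had no arm matched in the RefSeq table. The leading copy's share moved between the animals by 7.35 percentage points in Mir138 and by 5.47 in Mir129, near the family median of 5.52.

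**Figure D3:**
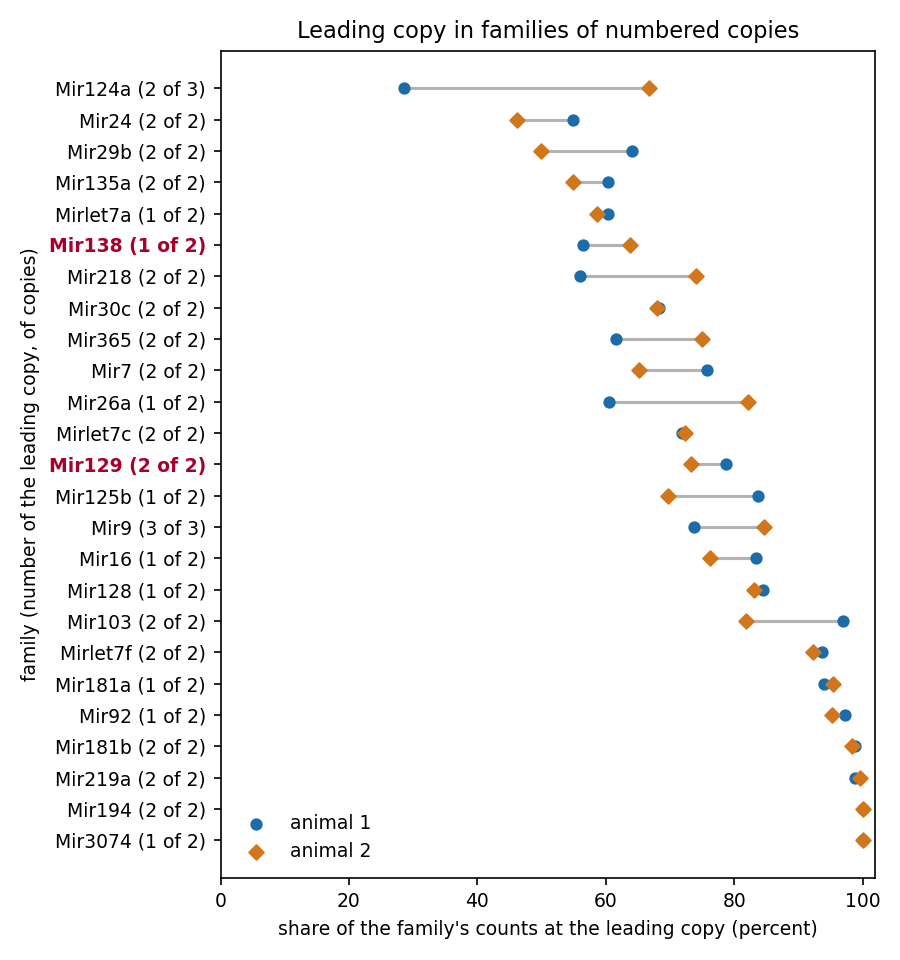
Share of a family's counts at its leading copy, in percent, for 25 families of numbered copies, with animal 1 as blue circles and animal 2 as orange diamonds; labels give the number of the leading copy and the number of copies. Mir138 (56.4 and 63.7%) lies among the even families and Mir129 (78.8 and 73.3%) in the middle.

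Each of the 5 genes differed between the animals by more than counting error, 2 being higher in animal 1 and 3 in animal 2. The part of a gene's counts that fell in animal 1 was given an exact 95% interval. The gene was called beyond counting error where that interval left out animal 1's part of the library totals. This was so for 56.6% of the 415 genes at 2 CPM or more in both animals, and for 89.5% of the 124 whose mean level reached 500 CPM. The 5 of 5 is thus near the share at their level. Of all 415 genes, 27% were higher in animal 1 and 29.6% in animal 2; of the 124, these shares were 44.4% and 45.2%. With 1 library per animal, animal and library preparation cannot be told apart, and no p-value is given.

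Mir137 and Mir138-2 were higher in animal 1. The log2 ratio of CPM, animal 1 over animal 2, was 0.51 for Mir137 (counting interval 0.47 to 0.55), a 1.42-fold difference, and 0.23 for Mir138-2 (0.19 to 0.27). The other 3 genes were higher in animal 2. The log2 ratio was -0.22 for Mir138-1 (-0.25 to -0.18), -0.33 for Mir129-2 (-0.38 to -0.28) and -0.77 for Mir129-1 (-0.86 to -0.68). The last is a 1.70-fold higher level in animal 2. Both miR-129 genes thus moved the same way, while the miR-138 genes moved in opposite ways. For the sum of both copies the log2 ratio was -0.04 for miR-138 (-0.06 to -0.01) and -0.44 for miR-129 (-0.48 to -0.39).

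These differences were ordinary in size for these libraries. The median absolute log2 ratio was 0.33 over the 5 genes, 0.34 over the 415 and 0.29 over the 124. Among the 124, 34 genes differed by more than Mir137 and 21 by more than Mir129-1. The median log2 ratio was close to 0 over the 415 genes, at -0.0029. Sums of marker lists also differed between the libraries. The neuron list came to 4.45% for animal 1 and 9.27% for animal 2. Without Mir132, left out after its values were seen, it came to 2.01% and 1.32%. Most of that rest was Mir128. Its copies held 19131.5 of 20107.5 CPM in animal 1 and 11616.7 of 13156 CPM in animal 2. Mir212, of the same list, went the other way at 909 and 1488 CPM. The oligodendrocyte list came to 0.164% and 0.346%, and the erythroid list to 0.0459% and 0.00912%. In the erythroid list Mir486, inside counting error, was at 33.5 and 38.2 CPM, so members of a list did not all move alike. The part of these sums in the differences at the 5 genes was not tested.

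**Figure D4:**
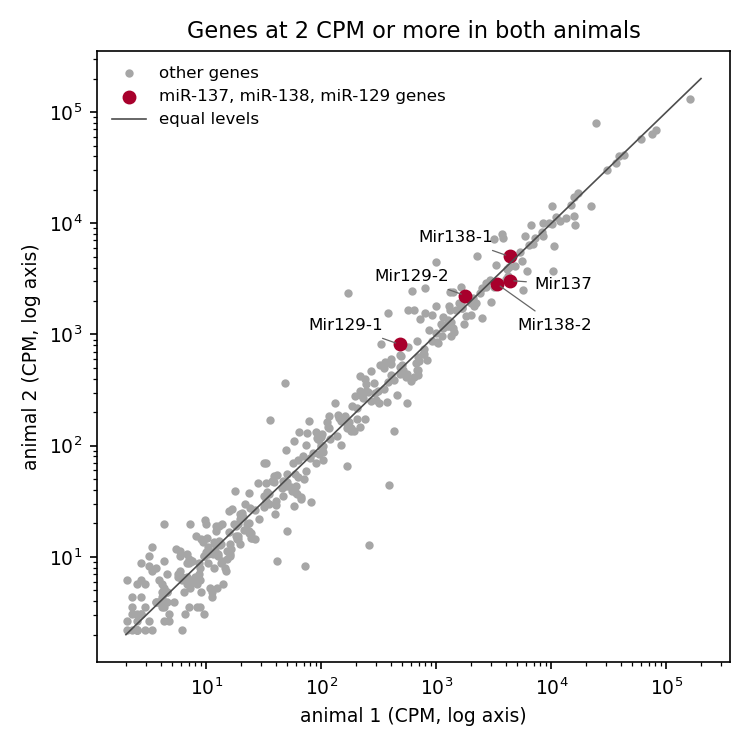
Level in animal 1 (horizontal) and animal 2 (vertical), in CPM on log axes, of the 415 genes at 2 CPM or more in both; red points are the miR-137, miR-138 and miR-129 genes, and the line marks equal levels. Mir137 and Mir138-2 lie below the line and the other 3 above it, within the spread of the grey points.

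Mir129-2 could be read only from the counts that respect strand. The antisense miRNA gene Mir129b lies on chromosome 2 at 94241378 to 94241442, plus strand, inside the span of Mir129-2. Mir129b itself had 0 counts on its own strand in both animals. In the column that ignores strand, Mir129-2 had 12 counts in animal 1 and 9 in animal 2, against 7863 and 5107 on its strand. Opposite Mir129b the tables hold 7851 and 5098 counts, which are the counts of Mir129-2 less those 12 and 9. The other 4 genes have no annotated antisense partner, and their counts were equal in both columns. Opposite the 5 genes themselves there were 0 counts in both animals.

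Other miRNAs that act at synapses were set beside the 5 genes, which stood in the upper part of the range except for Mir129-1. By mean level Mir129-1, at 647 CPM, lay below Mir212 at 1199 CPM and Mir125b-1 at 1041 CPM, among others. The list holds 22 genes and was drawn up with earlier results of these data known. Of these, 18 reached 2 CPM in both animals, with 7 higher in animal 1, 8 higher in animal 2 and 3 inside counting error. The 15 beyond counting error are 83.3% of the 18, against 56.6% of all 415 genes and 89.5% of the 124 whose mean level reached 500 CPM. The called share was higher among genes of higher level, so the 56.6% is no match for the level of the 18. The median mean level was 469 CPM over the 18 and 301 CPM over all 22. By mean level 3 lay above all 5 genes. They were Mir132, an activity-induced miRNA, at 24389 and 79576 CPM, Mir128-1 at 16164 and 9645 CPM, and Mir485, which represses a synaptic vesicle protein, at 5520 and 4545 CPM. Mir485 was below Mir138-1 in animal 2. By mean level per base of hairpin Mir379 joined them. By mean level 14 genes were below all 5 on both scales, among them Mir134, a dendritic miRNA that limits spine growth, at 481 and 444 CPM, which was level with Mir129-1 in animal 1, and Mir218-2 at 64.1 and 134 CPM. The copies of Mir124a and Mir9 had 45.7 CPM at most, in Mir9-3 in animal 1. The copies of Mir9 have 2 mature arms in common, and the longest stretch shared among the Mir124a copies is 32 bases. Reads of such stretches cannot be assigned to a copy by sequence, so these values do not give the level of miR-124 or miR-9.

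**Figure D5:**
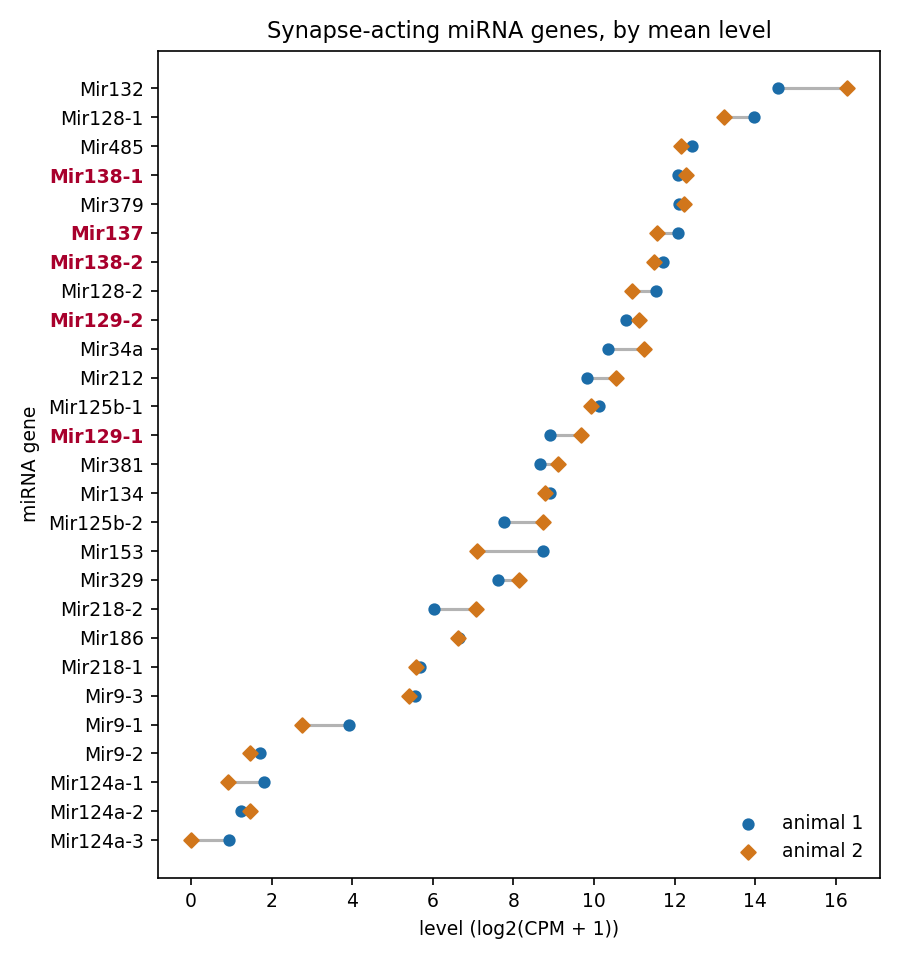
Level as log2(CPM + 1) of the 5 genes (red names) and 22 other synapse-acting miRNA genes, ordered by mean level, with animal 1 as blue circles and animal 2 as orange diamonds. Mir132 and Mir128-1 lie above the 5 genes in both animals and Mir485 by its mean, and the copies of Mir9 and Mir124a fill the bottom. Counts at those copies may miss reads of the stretches that the copies share.

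The genes nearest in level over both libraries, by distance in log2(CPM + 1), came from other loci. Nearest to Mir137 were Mir361 at 4061 and 3123 CPM and Mir378a at 4217 and 3325 CPM. Nearest to Mir138-1 were Mir342 at 4467 and 5173 CPM and Mir379 at 4460 and 4788 CPM. For Mir138-2 they were Mir668 and Mir423, for Mir129-2 Mirlet7f-2 and Mir98, and for Mir129-1 Mir673 and Mir204. Distances ran from 0.0616 for Mir342 to 0.321 for Mir204. With 2 libraries this likeness says only that the levels were close.

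The hairpins had no common extreme in composition or predicted stability. Folded with RNAfold, their minimum free energy per base ran from -0.413 kcal/mol in Mir138-2 to -0.533 kcal/mol in Mir129-2, against a median of -0.435 over the 415 genes. Mir129-2 was more stable than or equal to 86.5% of those genes, and Mir138-2 than 35.9%. GC content ran from 45.2% in Mir137 to 57.7% in Mir138-2, around a median of 52.4%.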

How the data were processed

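The microRNA-seq data cover the left cortex of 2 female mice. For each library the authors deposited a table of raw read counts by miRNA gene. Text metadata beside each table name mm10 and GENCODE M21. The aligner and any trimming or filter were not given in the sources used here. The 3 count columns have no header. Of the strand-assigned columns, that with the higher sum was used. The first 4 entries name no gene, held 67.4% of reads in animal 1 and 77.5% in animal 2, and were left out of totals. All 2202 identifiers matched the annotation.

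CPM was computed over all gene counts. Intervals are exact Clopper-Pearson or Poisson 95% intervals (scipy 1.17.1). Calls beyond counting error were tested on simulated Poisson counts. Those hold no PCR duplicates and no variation between libraries, so that test cannot show how the calls fare with either. No differential test was possible with a single group. The values of 2 libraries give an SD and no p-value. Hairpins were folded with RNAfold 2.7.2. Alternatives were TMM (edgeR 4.0.16), DESeq2 1.42.0 size factors, unstranded counts, other totals, filters and pseudocounts of 1 and 5 CPM, each library left out, and, chosen after seeing the data, scaling by hairpin length.

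Named genes are the 5 genes, the 2 nearest to each in level, the list of other synapse-acting miRNAs, marker lists and overlapping genes; Mir670, Gm24155, Mir128, Mir194 and Mir3074 were named after their values were seen. The genes and lists were chosen with earlier results of these data known.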

Additional observations from a re-analysis of the deposited data

Results flagged for a closer look

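Opposite the strand of Mir129b there were 7851 counts in animal 1 and 5098 in animal 2, where the floor set for a count of 0 is 3. This gene lies inside Mir129-2 on the other strand, and these are counts of Mir129-2 that are already used above. The entry for reads at several places stood at 48.9% of what mapped for animal 1 and 48.2% for animal 2, and the tables do not say which genes they touch. Groups of 2 libraries are too small for a check of outlying samples.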

How the results depend on the processing

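Of 118 recomputed values, 88 kept their direction and side of the threshold or moved by less than the spread between libraries, 29 moved and 1 lost its call; none reversed. TMM scaling and DESeq2 size factors were among the settings under which no value moved. All 5 genes stayed beyond counting error with either and with other totals, and pseudocounts left the sign of each ratio as it was.

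Unstranded counts removed Mir129-2. Its mean level was then 3.56 CPM, its rank 374, its share of the miR-129 counts 0.523% and its log2 ratio -0.54, inside counting error. The antisense gene Mir129b that overlaps it accounts for this by construction, since 7851 and 5098 counts return on strand. The 5 genes' share was 1.30%, the ranks of Mir138-1 and Mir138-2 were 37 and 47, and evenness ranked Mir138 5th and Mir129 21st of 22 families.

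With Mir139 left out of the total, levels were 5474 CPM for Mir138-1, 3644 for Mir138-2 and 2351 for Mir129-2, and the share was 1.66%. With all mapped reads as the total, levels were 1573 CPM for Mir137, 1990 for Mir138-1, 1322 for Mir138-2, 275 for Mir129-1 and 856 for Mir129-2, and the share was 0.602%. A larger or smaller total scales all genes of a library alike.

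Among genes with 1 count or more in either library, 34.3% were beyond counting error. With families of 100 or more counts, Mir138 ranked 5th of 20 for evenness. Leaving out either library gave ranks of 40 to 51 for Mir137, 108 to 129 for Mir129-1 and 65 to 67 for Mir129-2, and an evenness rank of 4 to 5 for Mir138. Per hairpin base Mir137 came 1st and Mir138-1 2nd among the 5 genes, and the leading copies' shares were 51.9% for Mir138-1 and 72.1% for Mir129-2. No paired analysis was possible because there was a single group.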
